A study of Mus musculus with 8 samples.

Results

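The genes described here are the members of the BTB and Kelch families that carried a peak of N6-methyladenosine (m6A) in mouse spermatogenic cells. They were chosen by symbol: a name that begins with Zbtb, Klhl, Kbtbd, Kctd or Btbd followed by a digit, in any of the 4 peak lists the authors deposited. This gave 78 of the 8733 genes with a peak, and 493 of the 35697 peaks. The count table of 53465 genes held all 78. There were 35 Zbtb, 18 Klhl, 6 Kbtbd, 11 Kctd and 8 Btbd genes, of which 77 are protein coding and 1, Kbtbd8os, is annotated as antisense. Levels did not enter the choice, but a gene without a peak in any list has no symbol in these files and could not be a member.

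The material came from testes of C57BL/6 mice aged 12 weeks, either wild type (WT) or Alkbh5-/- (KO), which lack the m6A demethylase ALKBH5. The series title names pachytene spermatocytes and round spermatids, and the sample titles give 2 cell fractions as PA and RO. Each genotype and fraction had 1 input library of fragmented total RNA and 1 library of the fragments that an m6A antibody brought down (MeRIP-seq), 8 samples in all. With 1 library per group there is no spread between replicates and no test. The intervals below are 95% intervals, exact binomial for ratios and Wilson for shares, and cover counting error only. Where 4 values follow each other without a name, their order is WT PA, KO PA, WT RO, KO RO. The labels do not say how many animals were pooled or how the fractions were purified.

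BTB is a protein interaction domain through which proteins pair with each other and with partners. In many KLHL and KBTBD proteins it sits beside Kelch repeats, which fold into a propeller that holds a substrate, and the protein serves as the adaptor of a CUL3 ubiquitin ligase. ZBTB proteins join the BTB domain to zinc fingers and act as transcription factors, often as repressors. KCTD proteins carry a BTB domain like the tetramerisation domain of potassium channels, and several of them also bind CUL3. Members known from male germ cells include KLHL10, needed for the late maturation of spermatids, KCTD19, needed for meiosis, BTBD18, which turns on pachytene piRNA genes, and ZBTB16 (PLZF), needed by spermatogonial stem cells. Methylated adenosines lie mostly in coding exons and around stop codons of mRNA, and ALKBH5 removes them.

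A first stretch of sequence is shown because a peak of all 4 lists covered it. It holds the first bases of the Klhl10 transcript, mm10 chr11:100441917-100441946 on the plus strand, with the bases from the RefSeq start (GRCm38.p6) at 100441924 in capitals.
Klhl10: tccctatATGAAAGATGTAGTAGGGAAAAG
These 30 bases hold no GGACT, a common form of the m6A consensus. Of the 63 members with a RefSeq promoter window, Klhl10 was the 1 gene with peaks over the first 50 bases of the transcript, 4 in number. The bases under the other peaks were not analysed here.

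The next sequences are the 250 bases before the RefSeq start (GRCm38.p6) of 3 of the 4 genes whose level in both KO libraries lay 2-fold or more away from both WT libraries, as described further on. Capitals mark CCAAT, the CCAAT box, and GGGCGG, a GC box of the kind bound by SP1, on either strand (so that ATTGG and CCGCCC are marked too). TGACGTCA, the full cAMP response element, was searched in the same way and was in none of them. The motifs share no bases. The windows are chr7:30598910-30599159 for Zbtb32 (the first of 2 RefSeq windows), chr14:102982638-102982887 for Kctd12 and chr2:37443173-37443422 for Zbtb26, all on the minus strand.
Zbtb32: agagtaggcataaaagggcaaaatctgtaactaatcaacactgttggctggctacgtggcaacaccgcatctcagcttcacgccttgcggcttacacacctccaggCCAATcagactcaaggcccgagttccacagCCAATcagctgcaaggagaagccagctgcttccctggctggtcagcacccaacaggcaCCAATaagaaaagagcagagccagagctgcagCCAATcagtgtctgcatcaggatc
Kctd12: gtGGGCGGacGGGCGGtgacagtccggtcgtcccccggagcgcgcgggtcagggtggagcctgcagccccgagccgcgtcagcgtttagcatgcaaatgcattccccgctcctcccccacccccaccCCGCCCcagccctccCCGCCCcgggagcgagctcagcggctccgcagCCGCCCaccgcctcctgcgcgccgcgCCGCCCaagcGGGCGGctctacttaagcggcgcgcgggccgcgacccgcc
Zbtb26: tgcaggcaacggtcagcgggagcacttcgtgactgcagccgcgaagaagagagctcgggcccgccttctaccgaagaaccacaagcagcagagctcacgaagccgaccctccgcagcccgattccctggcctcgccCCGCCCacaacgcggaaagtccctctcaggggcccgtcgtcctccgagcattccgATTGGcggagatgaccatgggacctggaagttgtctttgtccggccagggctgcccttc
The Zbtb32 window held 4 CCAAT and no GGGCGG. The Kctd12 window held 7 GGGCGG and no CCAAT, and the Zbtb26 window 1 of each. Among all 27025 promoter windows of this length in the table, 34.5% held CCAAT, 32.9% GGGCGG and 1.62% TGACGTCA. Among the 63 members with a window the shares were 34.9%, 69.8% and 1.59%. A match describes the letters and is not a binding site.

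The libraries held between 9921365 and 13147239 counts. Alkbh5 has no symbol in these files and was not analysed here, so the genotype labels were not checked on it. Pachytene markers (5 of 13 with a symbol) summed to 3183 CPM in WT and 1520 in KO for PA, and 2820 and 1768 for RO, so that they were hardly lower in RO than in PA in WT. Round spermatid markers (8 of 14) summed to 261, 568, 497 and 1039. Their median log2 ratio of KO over WT was -1.11 for pachytene and 1.25 for round spermatid markers in PA, and -0.71 and 1.59 in RO. Spermatogonia markers (4 of 8) summed to 29.4, 44.7, 24.8 and 35.6 CPM, Sertoli markers (4 of 8) to 239, 318, 172 and 198, Leydig markers (2 of 6) to 136, 40.03, 41.5 and 16.7, and peritubular, endothelial and blood markers (4 of 8) to 399, 444, 205 and 365. No marker with a symbol was at 0. The lists thus differed in how they moved with genotype and fraction. For pachytene markers the median log2 ratio of RO over PA was -0.05 in WT and 0.17 in KO. For round spermatid markers it was 0.81 and 0.83. In such bulk libraries fewer cells of a type and less RNA per cell cannot be told apart.

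The families differed in how many of their genes carried a peak. Peaks were listed for 35 of the 41 protein-coding Zbtb genes in RefSeq, or 85.4% (71.6 to 93.1). For Klhl it was 18 of 37 (48.6%, 33.4 to 64.1), for Kctd 11 of 22, for Kbtbd 5 of 9, and for Btbd 8 of 42, which became 6 of 13 without the Btbd35f genes, a multicopy family of the X chromosome. Over the families together it was 77 of 151 (51.0%, 43.1 to 58.8). Among all RefSeq protein-coding genes it was 6939 of 21900 (31.7%). The Zbtb share was the highest of these families. Its interval lay above those of the others except Kbtbd, whose interval (26.7 to 81.1) overlapped it in part. The 35 Zbtb genes include Zbtb9, whose peaks all lay in bases also listed for another gene, as described further on. A gene that is not transcribed cannot carry a peak, and levels of genes without a symbol were not analysed here.

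Members had between 111 and 129 peaks in a list. The WT PA list held 111 peaks in 61 members, KO PA 129 in 68, WT RO 128 in 67 and KO RO 125 in 63. Members averaged 1.82, 1.90, 1.91 and 1.98 peaks per gene in that order, against 1.59, 1.63, 1.62 and 1.59 over all genes with a peak. Members with 2 or more peaks made up 54.1% (41.7 to 66.0) in WT and 60.3% (48.4 to 71.1) in KO for PA, and 58.2% (46.3 to 69.3) and 63.5% (51.1 to 74.3) for RO. The same share over all genes was 33.1%, 35.0%, 34.6% and 32.6%, below each of these intervals. Peaks over an exon junction were a minority: 5.41%, 6.98%, 8.59% and 5.6% of member peaks had more than 1 exon block, and 13.8%, 21.2%, 13.4% and 16.1% of all peaks. The authors' false discovery rate was 0.05 or higher for 6, 3, 23 and 4 member peaks in the same order, so that the WT RO list held most of the weak ones.

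**Figure D1:**
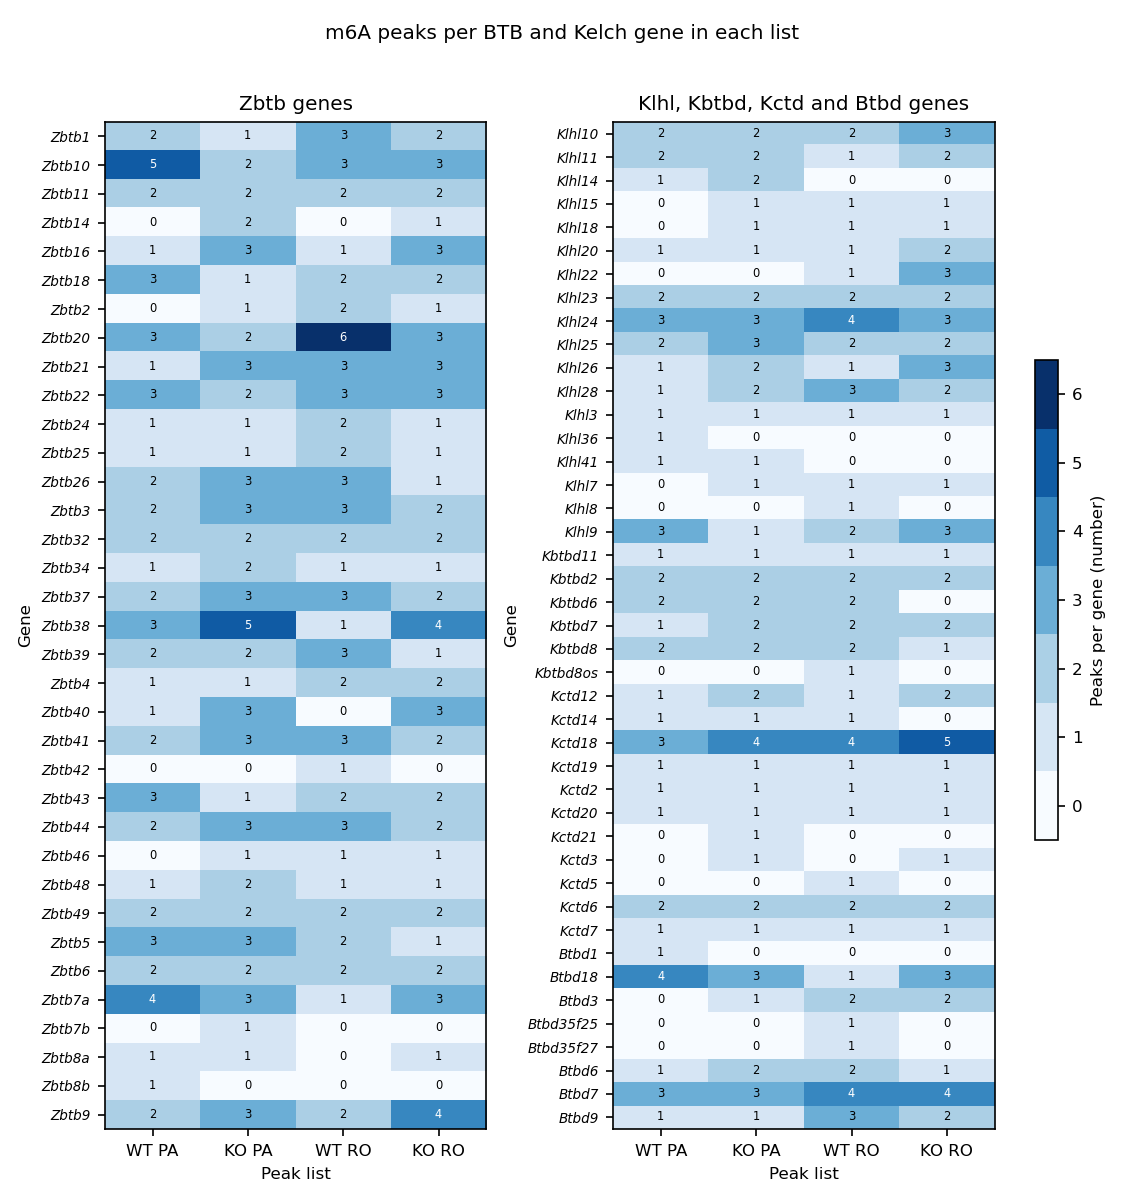
Number of m6A peaks of each BTB and Kelch gene (rows) in each peak list (columns), Zbtb genes on the left and the other families on the right, with darker blue for more peaks. Most rows are filled in all columns (52 of 78 genes), and Kctd18, Zbtb20 and Btbd7 are among the rows with the most peaks.

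Coding sequence held most member peaks. Its share was 73.0% of 111 peaks in WT PA (64.0 to 80.4) and 67.4% in KO PA (59.0 to 74.9). For RO it was 64.1% in WT (55.5 to 71.9) and 62.4% in KO (53.7 to 70.4). Among peaks of all protein-coding genes it was 63.5%, 61.5%, 57.4% and 59.7%, so that the members lay above it in each list but beyond the counting interval in WT PA alone. The 3′ UTR held fewer member peaks, 11.7% (6.97 to 19.0) in WT and 14.0% (9.01 to 21.0) in KO for PA, and 18.8% (12.9 to 26.4) and 14.4% (9.31 to 21.6) for RO. The protein-coding background was 23.3%, 24.3%, 28.3% and 26.9%, above each of the member intervals. Peaks of 1 gene share their transcript, so these intervals are narrower than the spread between genes. Peaks classed as other exon, without a coding or UTR label, were 12, 16, 15 and 20, and included every peak of Klhl9 and of Klhl15.

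**Figure D2:**
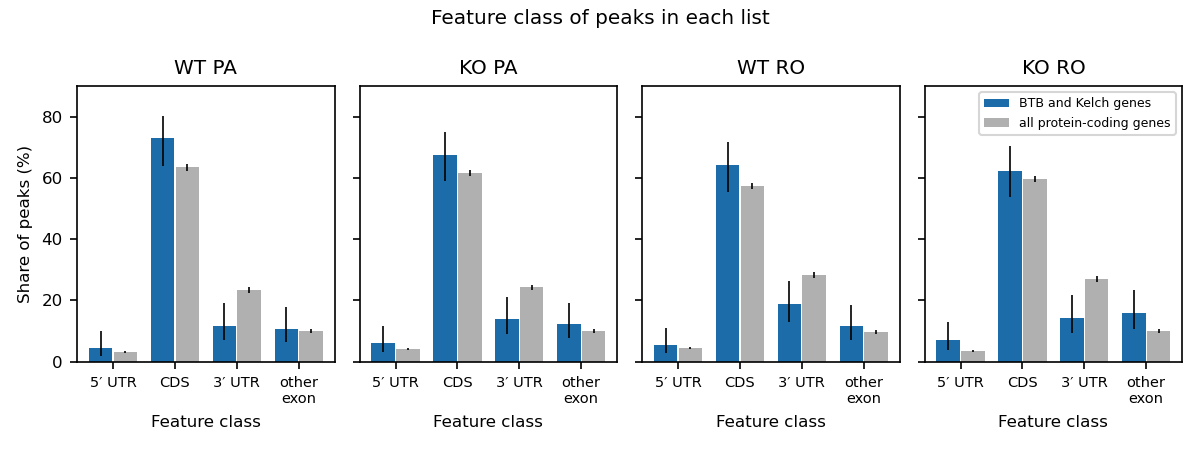
Share of peaks by feature class in each list for BTB and Kelch genes (blue) and all protein-coding genes (grey), with Wilson 95% intervals as error bars. Blue bars are lower than grey ones for the 3′ UTR in all 4 lists (11.7% against 23.3% in WT PA).

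The 5′ UTR peaks came mostly from positions that the lists also assigned to another gene. There were 5, 8, 7 and 9 of them. Without peaks whose bases the same list also gave for another gene on either strand, 1, 1, 1 and 0 were left, and coding sequence made up 76.4%, 72.5%, 67.2% and 68.4%. This setting was chosen after seeing the data. It removed 31 peaks of 3 genes. For Kctd18, 15 of 16 peaks lay outside the RefSeq Kctd18 gene and inside RefSeq Sgo2a, which encodes a shugoshin that protects cohesion in meiosis. For Kctd12, 3′ UTR peaks were shared with Gm26778 on the opposite strand. Kctd12 and Kctd18 together had 20 peaks listed also for a gene on the opposite strand, and 13 of them had the same fold under both names. For Zbtb9, all 11 peaks lay in bases also listed for Ggnbp1, the gene of a gametogenetin-binding protein on the same strand. Zbtb9 had 0 counts in all 4 libraries, while Ggnbp1 had 1209 in WT and 687 in KO for PA, and 943 and 674 for RO. Whether these peaks belong to the members or their neighbours was not tested.

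By family, overlapping peaks of the 4 lists were merged into 164 sites. Of 92 Zbtb sites 61 were coding (66.3%, 56.2 to 75.1), of 32 Klhl sites 16 (50%, 33.6 to 66.4), of 14 Btbd sites 11 (78.6%, 52.4 to 92.4), of 8 Kbtbd sites 5 and of 18 Kctd sites 7 (38.9%, 20.3 to 61.4). Kctd also had 7 sites in the 3′ UTR and 4 in the 5′ UTR. The 4 in the 5′ UTR were all Kctd18 sites in bases also listed for Sgo2a. The 3′ UTR sites of Kctd12 lay in bases also listed for Gm26778. The coding share of Kctd thus includes these sites of unsure origin. The interval of Kctd overlaps those of Zbtb and Btbd only in part. A single site was found in 33 members and 4 or more sites in 10. The class differed between lists at 8 sites, among them the Klhl10 start, called 5′ UTR in both PA lists and coding in both RO lists.

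Members were seen in all lists more often than other genes. Of the 78 members, 52 had a peak in all 4 lists (66.7%, 55.6 to 76.1), against 34.4% of all genes with a peak. Among genes with at least 10 CPM (the count of a gene relative to the size of its library) in every input library it was 44 of 51 members (86.3%, 74.3 to 93.2) and 47.8% of 5310 genes. Without the peaks that are also listed for another gene 49 members remained in all 4 lists. At the level of sites, 62 of 164 lay in all 4 lists, 26 in 3, 31 in 2 and 45 in 1. Of the sites in 1 list 24 were in WT RO, 9 in KO PA, 8 in WT PA and 4 in KO RO. Sites of other genes were not merged, so these counts have no background here. Counted by gene, WT RO was also the most frequent single list over all genes with a peak, with 1252 of 2738.

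**Figure D3:**
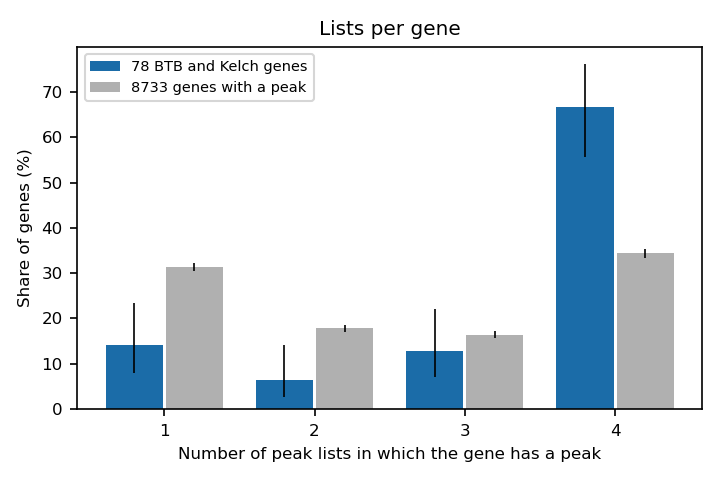
Share of genes with a peak in 1, 2, 3 or 4 peak lists for the 78 BTB and Kelch genes (blue) and all 8733 genes with a peak (grey), with Wilson 95% intervals. The blue bar at 4 lists stands at 66.7% and the grey one at 34.4%.

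The remaining 26 members fell into several patterns. Btbd3, Klhl15, Klhl18, Klhl7, Zbtb2 and Zbtb46 lacked a peak in WT PA, Zbtb40 and Zbtb8a in WT RO, and Kbtbd6 and Kctd14 in KO RO. Kctd3 and Zbtb14 had peaks in both KO lists and neither WT list, or 2.56% of members against 6.87% of all genes. No member had peaks in both WT lists alone, a pattern of 2.32% of all genes. Kctd3, a partner of the pacemaker channel HCN3, carried this peak in its 3′ UTR at chr1:188972175-188972595 in KO PA, with a fold of 13.9 over input in the authors' list, and from the same start in KO RO with a fold of 14.6. Its counts of 643 in WT and 427 in KO for PA, and 424 and 404 for RO show that the RNA was sampled in the WT libraries as well. Klhl14 and Klhl41 were listed in both PA lists, Klhl22 in both RO lists, and 11 members in a single list. The 6 listed in WT RO alone were Btbd35f25, Btbd35f27, Kbtbd8os, Kctd5, Klhl8 and Zbtb42.

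Between genotypes, most members with a peak had one in both. In PA 58 of 71 members had a peak in both genotypes (81.7%), 10 in KO alone (14.1%) and 3 in WT alone (4.23%). Over all genes it was 3968 of 6826 in both (58.1%), 2116 in KO alone (31.0%) and 742 in WT alone (10.9%). The ratio of KO to WT peaks was 1.16 (0.895 to 1.51), against 1.32 over all peaks. In RO the members' numbers were 59, 4 and 8 (83.1%, 5.63% and 11.3%), and over all genes 3847, 1734 and 1953 (51.1%, 23.0% and 25.9%), with a ratio of peaks of 0.977 (0.757 to 1.26) against 0.939. Both intervals include 1, and each also includes the ratio over all peaks of its fraction. The KO-alone genes in PA had log2 count ratios of KO over WT from -2.55 to 1.36, with a median of -0.15, and 4 of the 10 were above 0.

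Most member peaks had a counterpart in the other genotype, and the overlap was higher than for all peaks. Of the WT PA peaks 86.5% (78.9 to 91.6) overlapped a KO PA peak by at least 1 bp, against 79.7% of all peaks. Of the KO PA peaks 68.2% (59.8 to 75.6) overlapped a WT PA peak, against 56.6%. In RO the shares were 70.3% (61.9 to 77.5) of WT peaks against 55.9%, and 73.6% (65.3 to 80.5) of KO peaks against 58.9%. The first of these intervals includes the background and the others do not. Peaks of 1 gene are not independent, so these intervals too are narrower than the spread between genes. With a reciprocal overlap of 50% the shares fell to between 51.6% and 61.3%. The share of all peaks under this rule is not given here, so the excess over the background holds for the 1 bp rule only. Peaks without a counterpart had lower folds in the authors' lists, with a median of 8.43 against 15.2 in WT PA and 13.5 against 29.0 in WT RO.

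Several members carried some of the highest folds of their lists. These folds are the authors' and are compared within a list. In WT PA the highest member peaks were in Klhl11 (133), Klhl9 (121) and Zbtb4 (105). Klhl11 has a peak of 1017 bp in coding sequence at chr11:100463332-100464348, ranked above 98.9% of all peaks of that list. In KO RO the same region of Klhl11 was the highest member peak (171), and in KO PA and WT RO it stood at 59.8 and 233. KLHL11 is known as the target of autoantibodies in patients with testicular germ cell tumours. In KO PA the highest was Zbtb18, a neuronal repressor, with a fold of 229 over 1558 bp at chr1:177447082-177448639, followed by Zbtb11 (127). Zbtb18 was also high in WT RO (207) and KO RO (116), where its peaks were shorter.

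In WT RO the highest member fold was in Kbtbd6, a Kelch adaptor that with KBTBD7 directs the degradation of TIAM1. It stood at 436 over chr14:79452968-79453326, above 99.9% of the peaks of the list. The gene had 106 counts in WT and 80 in KO for PA, and 100 and 137 for RO. In PA its fold was 11.6 in WT and 35.7 in KO, and it had no peak in KO RO. Each list that held it gave 2 nearly identical peaks, so its peak count is 1 site. Klhl24, an adaptor for intermediate filament proteins, followed in WT RO with 280 at chr16:20107111-20107501, a site with folds of 21.4 and 64.3 in the WT and KO lists of PA and 14.6 in KO RO.

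Among the members with the most peaks, Zbtb10 had long coding peaks that joined and split between lists. In KO PA a single peak spanned 3 exon blocks with 1705 exonic bp from chr3:9251289-9278280, while WT PA had 4 separate peaks within the same site. The number of peaks, 5 in WT and 2 in KO for PA, and 3 and 3 for RO, therefore did not follow the number of sites, which was 2. Btbd7, known from the branching of embryonic glands, had 3 coding sites, 2 of them in all 4 lists. Zbtb40 had 1 peak in WT and 3 in KO for PA, and 0 and 3 for RO, while its counts were 809, 853, 925 and 895. The site in WT PA, at chr4:137018083-137018233, was shared with both KO lists.

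The members known from germ cells differed in both peaks and levels. Klhl10 had 419 counts in WT and 411 in KO for PA, and 808 and 729 for RO, or 35.7, 37.99, 70.2 and 66.6 CPM after TMM scaling (which sets the libraries to a common effective size). Both RO libraries were higher than both PA libraries, and the genotypes differed by less than the counting error. The log2 ratio of RO over PA was 0.97 (0.80 to 1.15) in WT and 0.81 (0.63 to 0.99) in KO, and that of KO over WT was 0.09 (-0.11 to 0.29) in PA and -0.08 (-0.22 to 0.07) in RO, or 0.10 in RO when scaled by total counts. Beside the start peak, Klhl10 had a coding site in all 4 lists, with folds of 36.9 in WT and 22.6 in KO for PA, and 25.2 and up to 20.7 for RO.

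Kctd19 was lower in both KO libraries. It had 4819 counts in WT and 1372 in KO for PA, and 4969 and 1448 for RO, or 411, 127, 432 and 132 CPM. The KO libraries were 3.24-fold lower in PA (log2 ratio -1.69, -1.78 to -1.61) and 3.26-fold lower in RO (-1.71, -1.79 to -1.62), while RO over PA was 0.07 in WT and 0.06 in KO. Its single site lay in coding sequence at chr8:105386964-105387323 in KO PA, with folds of 3.33 in WT and 14.4 in KO for PA, and 7.52 and 7.39 for RO. Zfp541, whose product forms a meiotic complex with KCTD19, had 1319, 422, 2004 and 554 counts in the same order, with log2 ratios of KO over WT of -1.52 in PA and -1.78 in RO. Of the pachytene markers, Sycp2, Mybl1, Ybx2 and Adam3 were also lower in KO in both fractions. Sycp1 was hardly changed in PA (log2 ratio -0.09) and higher in KO in RO (0.25). The part of these markers in the lower level of Kctd19 was not tested.

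Zbtb32, a repressor studied in lymphocytes, was lower in KO by a like amount. It had 5063 counts in WT and 1422 in KO for PA, and 4890 and 1830 for RO, or 432, 131, 425 and 167 CPM. The log2 ratio was -1.71 (-1.80 to -1.63) in PA and -1.35 (-1.42 to -1.27) in RO. It kept 2 sites in all 4 lists, a coding one and one in the 3′ UTR. The coding peak had folds of 7.30, 8.05, 3.81 and 16.6 in the order WT PA, KO PA, WT RO and KO RO, and the 3′ UTR peak 6.21, 26.5, 25.6 and 5.06.

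Kbtbd11 had fewer counts, 231 in WT and 92 in KO for PA, and 384 and 114 for RO. Both KO libraries lay below both WT libraries, with log2 ratios of -1.19 (-1.58 to -0.86) in PA and -1.66 (-1.99 to -1.37) in RO. Scaled by total counts the PA ratio was -0.91. Its coding site was in all 4 lists.

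Kctd12, an auxiliary subunit of the GABA-B receptor, was higher in both KO libraries. It had 171 counts in WT and 454 in KO for PA, and 226 and 691 for RO, or 14.6, 42.0, 19.6 and 63.1 CPM. The log2 ratio was 1.51 (1.27 to 1.79) in PA and 1.68 (1.47 to 1.91) in RO. Gm26778, which overlaps it on the opposite strand, had 34, 77, 59 and 116 counts. The counting is not stated to use strand, so reads of both cannot be told apart. Its 3′ UTR peaks were in both KO lists and in WT PA, and its WT RO peak, in coding sequence, had a false discovery rate above 0.05. Of the round spermatid markers, Prm2, Tnp2, Odf1, Akap4 and Tssk2 were also higher in KO in both fractions. Acr was lower in KO in both (log2 ratio -0.48 in PA and -0.61 in RO). Acrv1 was lower in RO (-0.81), and Tssk1 was higher in PA (1.10) and level in RO (0.02). The part of these markers was not tested.

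Zbtb26, a BTB zinc finger gene with coding peaks in all 4 lists, had 122 counts in WT and 383 in KO for PA, and 154 and 392 for RO, or 10.4, 35.4, 13.4 and 35.8 CPM. The log2 ratio was 1.75 (1.47 to 2.07) in PA and 1.41 (1.15 to 1.70) in RO. Klhl15, the CUL3 adaptor for a regulatory subunit of the phosphatase PP2A, had 222, 529, 182 and 390 counts, with log2 ratios of 1.36 (1.14 to 1.60) and 1.16 (0.91 to 1.43). Both KO libraries were above both WT libraries for each of these genes. Klhl15 had no peak in WT PA, and its WT RO peak had a false discovery rate above 0.05.

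Kctd12 and Zbtb26 were the members at least 2-fold higher in both KO libraries than in both WT libraries, 2 of the 69 with 10 CPM in some library, and Kctd19 and Zbtb32 the 2 at least 2-fold lower. The background was 3.41% of all genes higher and 4.19% lower, and 2.48% and 4.44% of genes with a peak. The members' share of 2.90% in each direction lay near it.

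**Figure D4:**
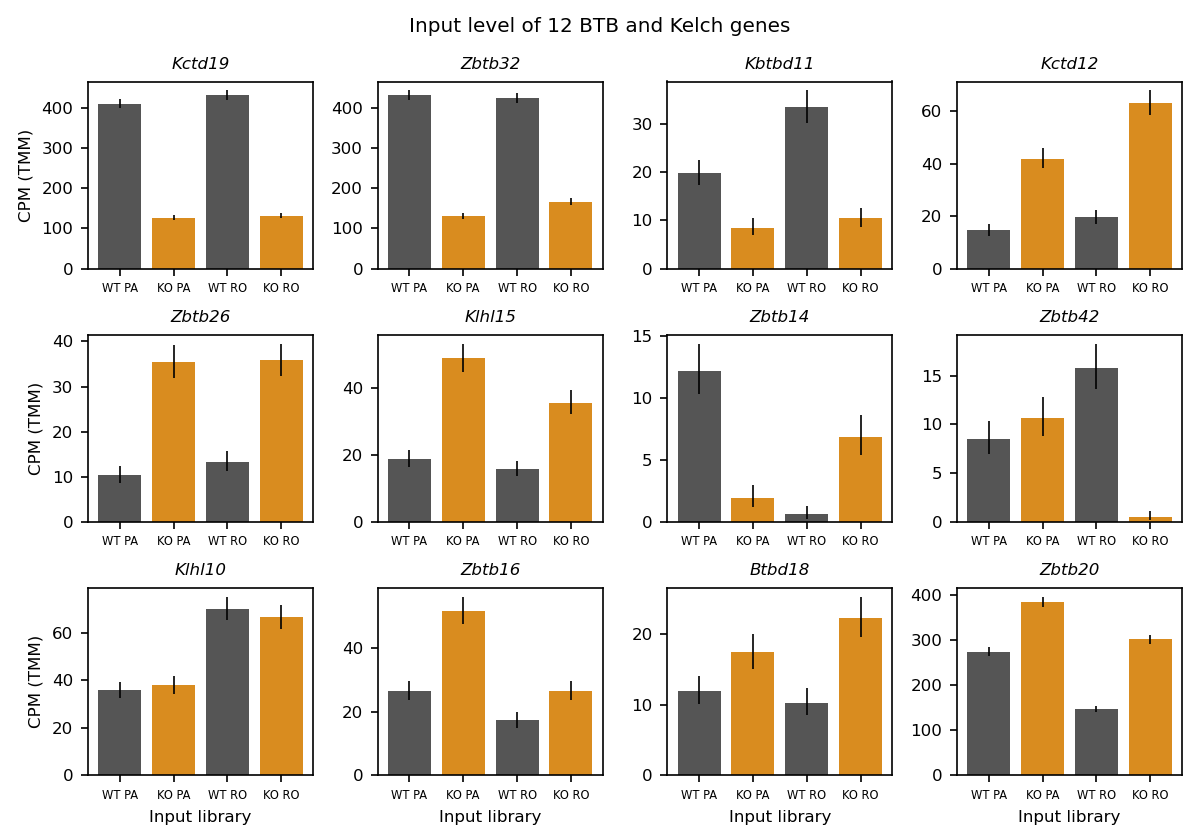
Input level (CPM after TMM scaling) of 12 BTB and Kelch genes in the 4 input libraries, 1 library per bar, WT in grey and KO in orange, with exact Poisson 95% intervals for counting error; each panel has its own scale. Kctd19 and Zbtb32 are lower in both KO libraries, Kctd12, Zbtb26 and Klhl15 higher, and Zbtb14 and Zbtb42 are near 0 in 1 RO library each.

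Zbtb16 had 311 counts in WT and 559 in KO for PA, and 198 and 290 for RO. It was highest in KO PA, and the log2 ratio of KO over WT was 0.96 (0.76 to 1.17) in PA and 0.62 (0.36 to 0.89) in RO. It had 1 coding site in all 4 lists and 2 further sites in both KO lists, one of them, at chr9:48657013-48657251, called 3′ UTR in KO PA and coding in KO RO. Btbd18 had 140, 188, 118 and 244 counts, and its log2 ratio was 0.54 (0.22 to 0.87) in PA and 1.11 (0.80 to 1.45) in RO. All its peaks, 4, 3, 1 and 3 in the lists, belonged to 1 coding site, whose top fold was 81.2 in WT PA and 126 in WT RO. Zbtb20, a repressor known from liver and brain, had 3207, 4144, 1678 and 3296 counts and was lowest in WT RO, with a log2 ratio of KO over WT of 0.49 in PA and 1.05 in RO. Zbtb24, mutated in an immunodeficiency with unstable centromeres, had 397, 215, 244 and 117 counts and was lower in KO by 1.70-fold in PA and 1.97-fold in RO. Zbtb38, which binds methylated DNA, had 620, 380, 334 and 340 counts. Zbtb7a, a repressor of fetal globin genes, had 196, 251, 266 and 254, and Zbtb7b (ThPOK), which directs T cells to the CD4 lineage, had 118, 53, 47 and 72.

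Members singled out for their peaks differed in how far their levels moved. Klhl9, which works with KLHL13 in cell division, had 479 counts in WT and 595 in KO for PA, and 536 and 401 for RO, with log2 ratios of KO over WT of 0.43 and -0.35. Klhl24 had 883, 870, 681 and 753, and Zbtb11 had 1338, 1305, 1565 and 1487, and neither moved by more than 0.22 between genotypes on the log2 scale. Zbtb10 had 2292, 1870, 1971 and 1641 counts, with ratios of -0.18 and -0.19; scaled by total counts the PA ratio was 0.11. Btbd7 had 1427, 2066, 1699 and 2089, with ratios of 0.65 and 0.37. Klhl11 was past 2-fold in RO, as were Zbtb20 and Zbtb14. Klhl11 had 479, 709, 407 and 807 counts, with ratios of 0.68 (0.51 to 0.85) and 1.06 (0.89 to 1.23). Zbtb43 and Zbtb3 stood out between the KO fractions. Zbtb43 had 329, 318, 202 and 130 counts, a log2 ratio of KO RO over KO PA of -1.30 (-1.61 to -1.01). Zbtb3 had 107, 171, 210 and 81 counts, a ratio of -1.08 (-1.50 to -0.71), and its genotype ratio was 0.78 (0.44 to 1.16) in PA and -1.28 (-1.69 to -0.93) in RO. Btbd3, known from the shaping of dendrites, had 187, 240, 56 and 138 counts and was lowest in WT RO.

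A pair of Zbtb genes stood far apart between libraries. Zbtb14 had 143 counts in WT and 21 in KO for PA, and 7 and 75 for RO, so that the genotype difference had opposite signs, -2.55 (-3.39 to -1.98) on the log2 scale in PA and 3.16 (2.38 to 4.86) in RO. Its coding peaks were in both KO lists, also in KO PA where it had 21 input counts. Zbtb42 had 100, 115, 182 and 5 counts, and its log2 ratio was 0.31 in PA and -4.66 (-6.75 to -3.86) in RO. Its only peak was in WT RO, in the 3′ UTR, with a fold of 70. Zbtb8b had 130, 87, 5 and 42 counts, and 1 peak, in WT PA. The RO ratio of each of these genes involves a library with 7 counts or fewer.

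At the low end, Btbd35f25 had 0 counts in WT and 1 in KO for PA, and 0 and 23 for RO, and Btbd35f27 had 10, 26, 0 and 26. The single peak of each was in WT RO, with a false discovery rate above 0.05, where both had 0 counts. They belong to a multicopy family whose reads the counting could split. Kbtbd8os had 4, 0, 12 and 1 counts.

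Across the families, the genotype ratios in PA were balanced. Of 75 members with at least 1 CPM in either library 6 were at least 2-fold higher in KO and 6 lower, or 8% each way. Among genes with a peak it was 13% higher and 14.1% lower, and among all genes 23.8% and 19.9%. The members' median log2 ratio was 0.07, against -0.05 for genes with a peak. At 10 CPM or more 5 of 67 members were higher and 5 lower, with 10.2% and 12.2% of genes with a peak and 13.3% and 13% of all genes as background. Higher at 1 CPM were Btbd35f27, Kctd12, Kctd5, Klhl15, Klhl25 and Zbtb26, and lower Kbtbd11, Kctd19, Klhl8, Zbtb14, Zbtb32 and Zbtb7b. Scaling by total counts moved the median of all genes by 0.29 and gave 12 members higher and 3 lower. The share of all genes past 2-fold under this scaling is not given here.

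In RO more members were higher than lower in KO. Of 77 members 16 were at least 2-fold higher and 6 lower, or 20.8% and 7.79%. It was 13.3% and 13.7% of genes with a peak and 23% and 19% of all genes. Among the 16, Btbd35f25, Btbd35f27, Kctd14, Kctd21, Zbtb8b and Zbtb14 had 7 counts or fewer in WT RO. The median was 0.11, against -0.05 for genes with a peak. At 10 CPM or more the numbers were 9 and 5 of 64, or 14.1% and 7.81%. The background was 9.91% and 12.2% of genes with a peak and 11.8% and 12.9% of all genes. By family, 5 Zbtb, 3 Klhl, 4 Kctd and 4 Btbd genes were higher, and 3 Zbtb, 2 Kbtbd and 1 Kctd gene lower.

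Between fractions, more members were lower in RO than higher in WT. Of 75 members 3 were at least 2-fold higher in WT RO than in WT PA and 13 lower, or 4.00% and 17.3%, against 12.4% and 10.7% of genes with a peak and 21.6% and 18.7% of all genes. The median was -0.19, against -0.03 for genes with a peak. At 10 CPM or more 2 of 67 were higher and 11 lower, against 9.28% and 8% of genes with a peak and 11.5% and 9.64% of all genes. The higher ones at 1 CPM were Kbtbd8os, Klhl25 and Klhl41. Klhl25, an adaptor for the translation inhibitor 4E-BP1, had 94 counts in WT and 215 in KO for PA, and 371 and 295 for RO. Klhl41, known from the sarcomere, had 206, 316, 538 and 466. The 13 lower ones were 6 Zbtb, 3 Klhl, 3 Kctd genes and Btbd3, and Klhl14 among them had 210, 96, 30 and 92 counts.

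In KO the same comparison gave fewer. Of 76 members 2 were at least 2-fold higher in RO and 4 lower, against 7.36% and 6.66% of genes with a peak and 17.5% and 15.2% of all genes, with a median of -0.01. At 10 CPM or more 0 of 64 were higher and 3 lower, against 3.82% and 3.98% of genes with a peak and 5.21% and 5.64% of all genes. These comparisons share libraries with the genotype comparisons. In the WT RO library 30 of 69 members (43.5%) had their lowest level of the 4 libraries, against 26.1% of genes with a peak. The median log2 ratio of WT RO over WT PA was -1.74 for the Leydig and -0.29 for the Sertoli markers. For the peritubular, endothelial and blood markers it was -1.02, and for the spermatogonia markers -1.23. Among the latter Stra8 was higher in WT RO (1.15), and Gfra1 and Sall4 had 2 and 6 counts there. For pachytene markers the median was -0.05 and for round spermatid markers 0.81. The part of the markers in this was not tested. For 38 of the 69 members the levels of all libraries lay within 2-fold, for 25 within 2-fold to 4-fold, and for 6 they spread by 4-fold or more. The same spread over other genes is not given here, so these counts describe the members only.

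**Figure D5:**
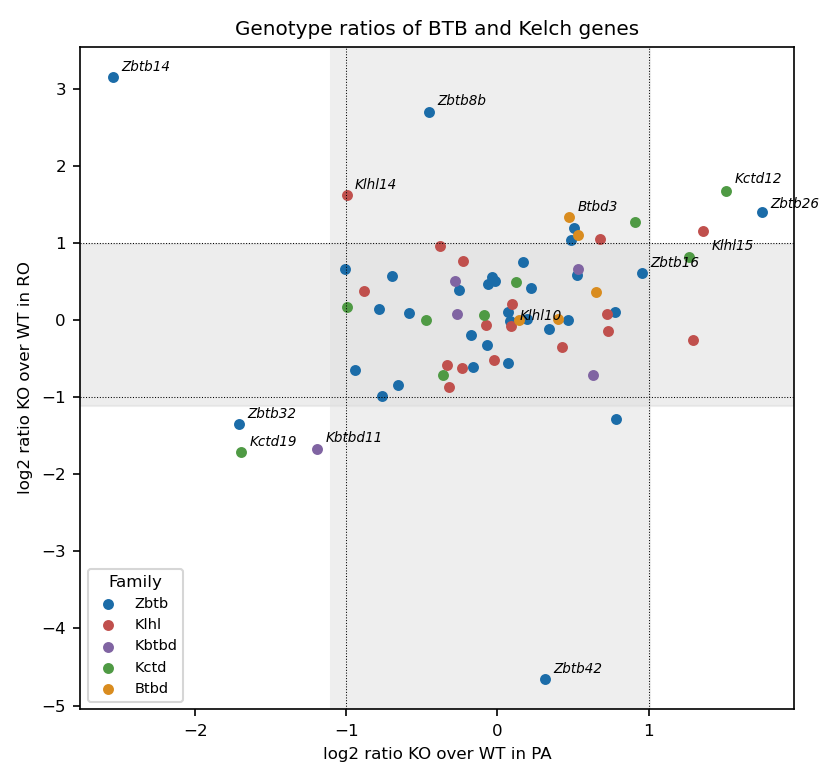
log2 ratio of KO over WT in PA (x axis) and RO (y axis) for the 69 BTB and Kelch genes with at least 10 CPM in some input library, coloured by family; dotted lines mark 2-fold and grey bands the 10th to 90th percentile of genes with a peak at 10 CPM. Most points lie near the centre, Kctd19, Zbtb32 and Kbtbd11 lie low in both fractions, Kctd12, Zbtb26 and Klhl15 high in both, and Zbtb14 has opposite signs.

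The genotype ratios of PA and RO, which share no library, were weakly related over these 69 members (Pearson r 0.12, Spearman rho 0.27), and over 13677 genes r was 0.52 and rho 0.53. Without Zbtb14 and Zbtb42 r was 0.41, and without Zbtb14 and Zbtb32, the farthest out in PA, 0.27. All points come from the same libraries. At least 2-fold in both fractions, 3 members were higher in KO, 3 lower and 1 of opposite sign (4.35%, 4.35% and 1.45%). Over all 13677 genes these shares were 5.39%, 5.96% and 0.98%, near those of the members.

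Genes that work with BTB and Kelch proteins, or carry the domains under other names, were also followed past 2-fold. Of a list of 45 such genes 26 have a symbol here. In PA 2 were higher in KO, Dcun1d3, which promotes the loading of NEDD8 on cullins, and Patz1, a BTB zinc finger gene, and 1, Zfp541, was lower. In RO 3 were higher, Cops2, Keap1 and Bach2, and 2 lower, Rhobtb2 and Zfp541. These are 7.69% higher and 3.85% lower in PA and 11.5% and 7.69% in RO, beside 13% and 14.1%, and 13.3% and 13.7%, of genes with a peak; with 26 genes, 1 gene is 3.85%. Between fractions 1 was higher and 2 lower in WT RO (3.85% and 7.69%) and none passed 2-fold in KO. Of genes with a peak 12.4% were higher and 10.7% lower in WT, and 7.36% and 6.66% in KO. Cul3 itself had 1614 counts in WT and 1686 in KO for PA, and 1213 and 1657 for RO, lowest in WT RO. Keap1, the Kelch sensor of oxidative stress, had 174, 213, 89 and 182.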

How the data were processed

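MeRIP-seq was done on 8 samples, an input and an immunoprecipitated library for each of 2 genotypes and 2 cell fractions, and groups were taken from the sample titles. Per the labels' protocols, total RNA was cut with zinc chloride to 100 to 200 nt before immunoprecipitation. The submitters' processing notes list mm10, cutadapt 2.5, HISAT2 2.1.0 and HOMER 4.10.4 without roles; the peak caller and the counting tool are not given in the sources used here. The authors deposited whole-number counts per Ensembl gene for the 4 input libraries, not normalized. Per the file headers, the 4 deposited peak lists give for each peak a fold of immunoprecipitated over input (a linear ratio), a log10 false discovery rate (used as a score, and only against 0.05), exon blocks, a feature class and a gene symbol. Folds were compared within a list, since depth enters them. Of 493 member peaks 96.8% overlapped the RefSeq (GRCm38.p6) gene of their symbol.

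TMM scaling (edgeR 4.0.16, R 4.3.3) gave factors of 0.892 and 1.09 in PA and 0.953 and 1.08 in RO (WT and KO), and log2 CPM used a prior count of 2, keeping genes with at least 1 CPM in either library. With 1 library per group no model was fitted and no p-value computed; genes at 2-fold or more were counted. Peaks were compared by exon blocks on the same strand. Alternatives were DESeq2 1.42.0 size factors, total counts, other filters, a prior of 0.5, and stricter peak and overlap rules. Scripts (Python 3.11.15, numpy 2.4.6, scipy 1.17.1, pandas 2.3.3, matplotlib 3.10.9) were tested on simulated data. The members and lists were chosen with earlier results of these data known. Named genes were those known from germ cells, the 3 highest and 3 lowest ratios of each comparison at 10 CPM, the 5 with the most peaks, the 3 highest folds of each list and those with peaks in both lists of 1 genotype alone; other names were chosen after their values were seen.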

Additional observations from a re-analysis of the deposited data

Results flagged for a closer look

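Zbtb14 had genotype differences of opposite sign in the fractions. The log2 ratio of KO over WT was -2.55 in PA (143 counts in WT, 21 in KO) and 3.16 in RO (7 counts in WT, 75 in KO). The difference between the fractions was not tested, since each group has 1 library.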

How the results depend on the processing

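No paired analysis was possible because each group has 1 library and the labels give no replicate numbers; for the same reason no replicate could be left out. No ratio past 2-fold changed sign under any alternative. Of the smaller ratios of named genes 9 changed sign under total counts (largest in size 0.28) and 1 under DESeq2 size factors; among them Zbtb10 went from -0.18 to 0.11, Zbtb4 from -0.07 to 0.22 and Zbtb18 from -0.01 to 0.27 in PA, and Klhl10 from -0.08 to 0.10 and Klhl41 from -0.13 to 0.04 in RO (KO over WT). Of the main values under their alternatives 86 stayed within the counting interval or within 1.5 times the main count, and 13 moved. Scaling by total counts gave 12 members higher and 3 lower in KO in PA, with a median log2 ratio of 0.35. It moved the median of all genes by 0.29 in PA and 0.18 in RO. The share of all genes past 2-fold under total counts is not given here. DESeq2 size factors moved no member past or back over 2-fold. At 10 CPM or more 9 members were higher in KO in RO, and 0 were higher in RO than PA in KO. With a reciprocal overlap of 50% the shared peaks were 61.3% of WT and 52.7% of KO peaks in PA, and 51.6% and 52.8% in RO. Counted by gene they were 97.3%, 91.5%, 93.0% and 95.2%. For neither rule is the share of all peaks given here. Of the single ratios of named genes, 244 did not move and 36 did, all of the latter with total counts. Leaving out peaks also listed for another gene, a setting chosen after seeing the data, moved none of the 5 values it was run on. The depth of input limits what can be said of members with 7 counts or fewer in some library. These were Zbtb14, Zbtb42, Zbtb8b, Zbtb9, Kctd14, Kctd21, Kbtbd8os and the Btbd35f genes.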
